A study of Mus musculus with 62 samples.

Results

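The 5 genes described here were read in all surgery and diet groups of a mouse liver study. They are the hormone genes Fgf21 (ENSMUSG00000030827) and Gdf15 (ENSMUSG00000038508), and the receptor genes Klb (ENSMUSG00000029195), Fgfr4 (ENSMUSG00000005320) and Fgfr1 (ENSMUSG00000031565). They were picked by symbol out of 56884 gene IDs, and all 5 were among the 16087 genes with enough counts to be tested. In liver RNA, Fgf21 and Gdf15 rose on a diet of 7% protein in sham mice. After sleeve gastrectomy Fgf21 also rose on it against both other protein diets and Gdf15 against the diet of 21% protein. On the diet of 36% protein Fgf21 was lower and the receptor gene Fgfr1 higher after sleeve gastrectomy than after sham surgery. The Fgf21 difference rested on 3 to 14 counts in each sleeve gastrectomy library. It lost significance in 4 of 9 fits with a library left out and in limma-voom, while the Fgfr1 difference kept it in all of these. For neither gene did the surgery effect differ significantly between the diets of 36% and 7% protein.

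FGF21 is a hormone that the liver releases into the blood in fasting, on diets short of protein and in other kinds of metabolic stress. Its gene is a known target of ATF4, the transcription factor switched on when amino acids run short, and of PPARA, the receptor that senses fatty acids in fasting. FGF21 acts on cells that carry beta-Klotho, the product of Klb, together with an FGF receptor, above all FGFR1, in fat and brain. Hepatocytes pair beta-Klotho mainly with FGFR4, which receives FGF15 from the ileum and lowers bile acid synthesis. GDF15 is a stress hormone made by many tissues, and it lowers food intake through GFRAL and RET in the hindbrain.

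Liver RNA was sequenced from male mice of the inbred strain C57BL/6J, which gains fat readily on a rich diet. They ate a Western diet (WD, 42% of calories as fat and 15.2% as protein) from 5 weeks of age for 12 weeks. At 17 weeks they underwent sham surgery or sleeve gastrectomy (SG), the removal of about 75% of the stomach. All received a recovery gel around the operation. From day 7 they ate either WD again or a diet with 20% of calories as fat and 36%, 21% or 7% as protein (P36, P21 and P7), in which carbohydrate replaced protein. Livers were collected at 14 weeks, when mice had fasted for 16 h and then eaten for 4 h. Chow groups were labelled as well, with no account of the chow or of when it was fed. The mice were kept in pairs, and which libraries share a cage is not given.

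The sham groups held 8 WD, 5 P36, 7 P21, 7 P7 and 4 chow libraries, and the SG groups 8 WD, 4 P36, 6 P21, 7 P7 and 1 chow library. The SG chow library entered no test. Libraries held 6.99 to 34.01 M counts, and 5.73% to 13.27% of them were mitochondrial. The hepatocyte markers, 8 of 8 of them detected, summed to 42600 to 115000 CPM in every library, where CPM is a count divided by the library total in M, scaled for library composition. Earlier results of these data had 4 SG libraries lying apart (P36 library 1, P7 library 7 and WD libraries 5 and 7), and calls of the 5 genes in SG mice that change without them are given both ways. In SG P36 library 1, erythroid markers summed to 1710 CPM and Retn, a gene of fat and myeloid cells, reached 9.49 CPM, the highest level of each in any library. Libraries keep their numbers from the labelled sample list, which carry no order.

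The sequences upstream of the hormone genes are shown because both genes rose on P7 and ATF4 is known to bind DNA as a partner of C/EBP proteins. They run from 250 bases before to 50 after the start of transcription and come from the RefSeq table for build GRCm38.p6, which differs from the build of the counts. Capitals mark matches to the C/EBP-ATF element TTNCATCA and to the E-box CACGTG, searched on both strands with no overlap between them. Fgf21 lies on chromosome 7 (minus strand, chr7:45615441-45615740), and Gdf15 has a pair of listed starts on chromosome 8, of which the second is shown (minus strand, chr8:70632046-70632345).
Fgf21: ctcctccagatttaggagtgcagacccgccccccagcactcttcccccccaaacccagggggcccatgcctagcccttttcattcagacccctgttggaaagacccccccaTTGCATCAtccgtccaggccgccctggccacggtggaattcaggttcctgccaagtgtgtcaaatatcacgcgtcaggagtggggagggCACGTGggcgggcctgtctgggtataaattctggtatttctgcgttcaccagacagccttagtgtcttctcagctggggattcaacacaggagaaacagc
Gdf15: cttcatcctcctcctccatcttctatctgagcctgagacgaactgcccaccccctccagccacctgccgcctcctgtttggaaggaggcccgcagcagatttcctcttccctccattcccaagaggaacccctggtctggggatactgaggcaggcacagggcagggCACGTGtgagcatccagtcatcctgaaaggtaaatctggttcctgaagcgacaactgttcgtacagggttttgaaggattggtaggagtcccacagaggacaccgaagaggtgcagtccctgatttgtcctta

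The Fgf21 window holds the C/EBP-ATF element TTGCATCA beginning at position -139 from the start and an E-box beginning at -50. The second Gdf15 window holds an E-box beginning at -83 and the first Gdf15 window (chr8:70632407-70632706) holds neither motif. No match was found in the windows of Klb (chromosome 5) and Fgfr4 (chromosome 13), and Fgfr1 was not matched in the table. Over all 32851 promoter windows, 3.97% hold the C/EBP-ATF element and 7.15% the E-box, and 4.51% and 8.09% of the 27025 genes have at least 1 window that does. The DR1 element, searched as an exact direct repeat of the kind that PPARA is known to bind, was found in 0.0396% of windows and in none of those of the 4 genes matched. Of 25 ATF4 target genes with a window, 9 hold the C/EBP-ATF element in at least 1 (Asns, Atf3, Chac1, Jdp2, Nupr1, Pycr1, Slc7a11, Trib3 and Vldlr), and of 20 PPARA targets with one, 0 do. A match describes these letters, and binding was not measured.

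Fgf21 spanned the widest range of levels among the 5 genes. Its lowest, median and highest levels were 15.4, 41.4 and 218 CPM in the 7 sham P7 libraries, and 3.25, 4.18 and 9.73 CPM in the 7 sham P21 libraries. The 5 sham P36 libraries held 2.32, 9.92, 4.69, 3.46 and 2.12 CPM. Every sham P7 library thus lay above every sham P21 and sham P36 library. In the same order, the 7 SG P7 libraries ran from 0.696 over 41.5 to 84.2 CPM and the 6 SG P21 libraries from 1.1 over 2.86 to 7.41 CPM. The 4 SG P36 libraries held 0.395, 0.559, 0.134 and 0.127 CPM, which are 9, 14, 3 and 3 counts. Of the SG P7 libraries, 6 lay between 29.3 and 84.2 CPM, above all other SG protein-diet libraries, and library 7 lay at 0.696 CPM, below every SG P21 library.

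On WD, the group means of Fgf21 lay between those on P7 and those on the other protein diets. Sham WD libraries ran from 6.3 over 16.5 to 73.0 CPM, where only library 1 was above 18.7 CPM, and SG WD libraries from 2.43 over 8.61 to 13.0 CPM. The sham chow libraries held 0.806, 0.587, 0.892 and 3.07 CPM, and the SG chow library 0.627 CPM. Ordered by mean log2 CPM, the 9 tested groups ran sham P7, SG P7, sham WD, SG WD, sham P21, sham P36, SG P21, sham chow and SG P36. The gap between neighbours was larger than the SD of either in 3 places, between sham WD and SG WD, between SG P21 and sham chow and between sham chow and SG P36, and only the last pair did not overlap in range.

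**Figure D1:**
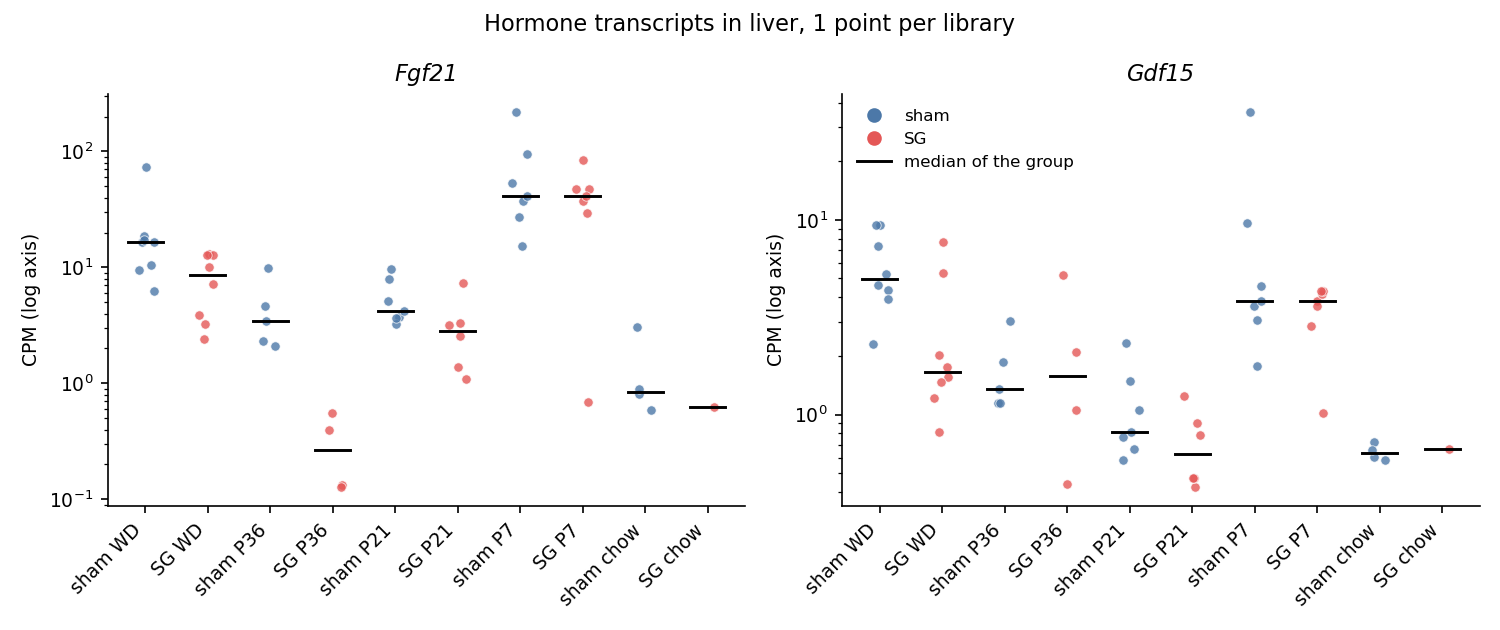
CPM of Fgf21 and Gdf15 on log axes, with 1 point per library, sham in blue and SG in red, and the median of each group as a black line. Sham P7 libraries of Fgf21 all lie above the sham P36 and P21 libraries, SG P36 libraries lie below 0.56 CPM, and SG P7 library 7 lies at 0.696 CPM of Fgf21.

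Fgf21 rose on P7 in both surgery groups. Since carbohydrate replaced protein, low protein and high carbohydrate cannot be told apart in any comparison among P36, P21 and P7. Fold changes are log2 values ± standard error from edgeR's quasi-likelihood fit, with p-values adjusted over all genes tested. Against P36, Fgf21 on P7 had a log2 fold change of 4.0 ± 0.69 in sham mice (n = 7 and 5, adjusted p = 3.07e-05) and of 7.08 ± 0.99 in SG mice (n = 7 and 4, adjusted p = 6.07e-07), a fold of 16.0 and of 135. In the sham comparison 2 of the 5 genes were called, both higher, against 15.7% of all genes, and in SG mice 2 were called, 1 higher and 1 lower, against 18.8%. A call is an adjusted p under 0.05. Levels in bulk liver cannot tell more RNA per cell from more cells of a type.

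Against P21, which shares the P7 libraries with the comparisons above, the log2 fold change of Fgf21 on P7 was 3.74 ± 0.59 in sham mice (adjusted p = 4.65e-06) and 3.61 ± 0.64 in SG mice (adjusted p = 0.00013). Here 2 of the 5 genes were called in sham mice, against 26.3% of all genes, and 3 in SG mice, against 9.7%, all of them higher on P7. Without sham P7 library 7, the log2 fold change in sham mice was 3.38 against P36 (adjusted p = 0.000128) and 3.12 against P21 (adjusted p = 3.96e-05). Without SG P7 library 7 it was 7.29 against P36 (adjusted p = 1.89e-08) and 3.83 against P21 (adjusted p = 5.06e-06) in SG mice. Each of these 4 comparisons thus kept its direction without the library farthest from the rest of its group.

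Between P36 and P21 the 2 surgery groups gave different values. In sham mice the log2 fold change of Fgf21 on P36 against P21 was -0.26 ± 0.62 (95% interval -1.51 to 0.99, adjusted p = 0.928), and none of the 5 genes was called by edgeR, DESeq2 or limma-voom or had an unadjusted p under 0.05, where 0.087% of all genes were called. In SG mice it was -3.46 ± 0.97 (adjusted p = 0.0186), and 2 of the 5 genes were called against 7.69% of all genes. Limma-voom did not call Fgf21 here (-3.45, adjusted p = 0.352). Without SG P36 library 3 the value was -3.23 (adjusted p = 0.0719), without SG P36 library 4 it was -3.2 (adjusted p = 0.0646) and without SG P21 library 2 it was -3.03 (adjusted p = 0.0556). The difference between the surgery groups in this contrast, -3.2 ± 1.16, was not called (adjusted p = 0.196, and 0.0336 in a fit of these 4 groups alone).

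Over the 3 protein diets and both surgeries, Fgf21 fell by 1.76 ± 0.19 on the log2 scale for each 10 percentage points of protein (adjusted p = 1.34e-08), in a fit with surgery as a term. Gdf15 fell by 0.63 ± 0.17 (adjusted p = 0.00449) and Klb by 0.16 ± 0.06 (adjusted p = 0.0372). Of the 5 genes 3 were called lower with more protein, against 31.6% of all genes called in either direction. For Klb the call ended without any 1 of 11 of the 36 libraries, with slopes between -0.19 and -0.13 over all 36. Fgfr1 had a slope of 0.17 ± 0.07 in the other direction, not called by edgeR (adjusted p = 0.0521), but called by DESeq2 (0.18, adjusted p = 0.0451), by limma-voom (0.19, adjusted p = 0.0376) and by edgeR without any 1 of 14 of the 36 libraries. A straight line is a summary only, since the sham P36 and P21 levels of Fgf21 overlapped. Nor did the group means of Gdf15 fall from P21 to P36 under either surgery. Its log2 fold change on P36 against P21 was 0.59 ± 0.57 in sham mice (adjusted p = 0.787). In SG mice it was 1.57 ± 0.64 (adjusted p = 0.125), and 0.68 without SG P36 library 1 (adjusted p = 0.629). None of these values was called.

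Surgery went with lower Fgf21 on P36. All 4 SG P36 libraries, at most 0.559 CPM, lay below all 5 sham P36 libraries, at least 2.12 CPM, and the log2 fold change was -3.84 ± 0.97 (adjusted p = 0.0204). Of the 5 genes 2 were called, Fgf21 lower and Fgfr1 higher, against 2.22% of all genes. The Fgf21 call did not hold without sham P36 library 2 (-3.33, adjusted p = 0.0859) or without SG P36 library 1 (-3.98, adjusted p = 0.0532), 3 (-3.61, adjusted p = 0.0836) or 4 (-3.57, adjusted p = 0.086), nor in limma-voom (-3.79, adjusted p = 0.448). In the authors' deposited table the log2 fold change of Fgf21 for this comparison was -3.80 with an adjusted p-value of 0.433.

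On the other diets the SG effect on Fgf21 was not called. Its log2 fold change was -1.36 ± 0.51 on WD (95% interval -2.37 to -0.34, adjusted p = 0.169), -0.64 ± 0.61 on P21 (-1.86 to 0.58, adjusted p = 0.551) and -0.76 ± 0.52 on P7 (-1.82 to 0.29, adjusted p = 1.0). The WD value was -0.74 without sham WD library 1 (adjusted p = 0.538), the P21 value -1.07 without SG P21 library 2 (adjusted p = 0.325) and the P7 value -0.15 without sham P7 library 7 (adjusted p = 0.977). Over P36, P21 and P7 together it was -1.75 ± 0.42 (adjusted p = 0.0106, and 0.2 in limma-voom), with 2 of the 5 genes called against 4.49% of all genes. The effect on P7 minus that on P36 was 3.08 ± 1.12 (adjusted p = 0.28). None of the 5 genes was called in this or the other 3 tests of a difference between surgery effects, by edgeR, DESeq2 or limma-voom, where edgeR called 0.149% of genes for P7 minus P36, 1.3% for P7 minus P21, 0.23% for P36 minus P21 and 0.124% for P21 minus WD. At an unadjusted p under 0.05 these tests held 4, 2, 2 and 1 of the 5 genes.

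Fgf21 was also higher on WD than on chow. Sham WD libraries, at least 6.3 CPM, all lay above the sham chow libraries, at most 3.07 CPM, and Fgf21 rose on WD by 4.02 ± 0.79 on the log2 scale (adjusted p = 9.95e-05), by 3.36 without sham WD library 1 and by 4.84 without sham chow library 6. There 4 of the 5 genes were called, the 2 hormones higher and Klb and Fgfr4 lower on WD, against 31.7% of all genes. It rose further on P7 against WD, with 1.73 ± 0.51 in sham (adjusted p = 0.00675) and 2.32 ± 0.53 in SG mice (adjusted p = 0.000544). The sham value was 1.11 without sham P7 library 7, and no longer called (adjusted p = 0.0756), and 2.35 without sham WD library 1 (adjusted p = 0.000343). Against WD, 4 of 5 genes were called on P7 in sham mice and 4 in SG mice, where 35.7% and 33.9% of all genes were.

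Fgf21 was lower on P21 and P36 than on WD in sham mice. There the log2 fold change was -2.01 ± 0.55 on P21 (adjusted p = 0.00411) and -2.27 ± 0.63 on P36 (adjusted p = 0.00889), and limma-voom called neither (adjusted p = 0.0593 and 0.0696). Without sham WD library 1 the values were -1.34 (adjusted p = 0.042) and -1.6 (adjusted p = 0.0482). In SG mice it was -1.29 ± 0.59 on P21 (adjusted p = 0.0905), which was called without the 4 libraries that lie apart (-1.59, adjusted p = 0.0216) or without SG P21 library 2 (-1.72, adjusted p = 0.0429), and -4.75 ± 0.94 on P36 (adjusted p = 0.000365, and 0.103 in limma-voom). All 5 genes were called in sham mice on both diets, against 32.1% of all genes on P21 and 18.2% on P36. In SG mice 1 gene was called on each, Gdf15 on P21 against 29.5% of all genes and Fgf21 on P36 against 16.8%. Without the 4 libraries that lie apart 3 were called on P21 and 2 on P36, with Fgf21 and Fgfr4 gained on P21 and Fgfr4 on P36, and limma-voom called none on either diet. These comparisons share their WD libraries, and the diets differ from WD in fat, carbohydrate and protein at once.

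Gdf15 had lower counts in most groups, and by mean log2 CPM the P7 and WD groups again came first. SG P36, the last of the 9 tested groups for Fgf21, had rank 6 for Gdf15, above sham P21, SG P21 and sham chow. The lowest, median and highest levels of Gdf15 were 1.78, 3.85 and 35.7 CPM in sham P7, 1.02, 3.84 and 4.33 CPM in SG P7, and 2.3, 4.96 and 9.4 CPM in sham WD. In SG WD they were 0.811, 1.66 and 7.74 CPM, in sham P21 0.584, 0.812 and 2.32 CPM and in SG P21 0.423, 0.629 and 1.25 CPM. The 5 sham P36 libraries held 1.14, 1.87, 1.35, 1.14 and 3.01 CPM, the 4 SG P36 libraries 5.23, 0.439, 2.1 and 1.06 CPM and the 4 sham chow libraries 0.604, 0.587, 0.722 and 0.661 CPM. Chow libraries lay within a narrow band, and all 8 sham WD and all 7 sham P7 libraries were above it. The SG chow library held 0.666 CPM. Between neighbours in the order of group means, the gap exceeded the SD of either only between sham WD and SG P7.

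Gdf15 rose on P7 in sham mice, by 2.42 ± 0.58 on the log2 scale against P36 (adjusted p = 0.00221) and by 3.01 ± 0.53 against P21 (adjusted p = 2.81e-05). Group ranges overlapped in both comparisons. Sham P7 library 7, with 35.7 CPM, held more than any other library, and without it the values were 1.42 (adjusted p = 0.037) and 2.02 (adjusted p = 0.000909). In SG mice Gdf15 rose on P7 by 2.24 ± 0.58 against P21 (adjusted p = 0.00927), where SG P21 libraries held only 5 to 32 counts of it. Against P36 the log2 fold change of Gdf15 was 0.67 ± 0.59 (95% interval -0.52 to 1.86, adjusted p = 0.465). The last value was 1.56 without SG P36 library 1 (adjusted p = 0.113) and 1.68 without the 4 libraries that lie apart (adjusted p = 0.0658). The difference between the surgery groups in P7 against P36 was -1.75 ± 0.79 (adjusted p = 0.458), and -0.75 without sham P7 library 7 (adjusted p = 0.706), -0.86 without SG P36 library 1 (adjusted p = 0.86) and -0.7 without the 4 libraries (adjusted p = 0.884).

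The SG effect on Gdf15 was not called on any diet, with log2 fold changes of -1.07 ± 0.45 on WD (adjusted p = 0.26), 0.39 ± 0.63 on P36 (adjusted p = 0.837), -0.58 ± 0.59 on P21 (adjusted p = 0.583) and -1.36 ± 0.48 on P7 (adjusted p = 0.909). On P36 the direction turned without SG P36 library 1 (-0.5, adjusted p = 0.855) and without the 4 libraries that lie apart (-0.51, adjusted p = 0.82). On P7 the value was -0.36 without sham P7 library 7 (adjusted p = 0.91). On WD edgeR called none of the 5 genes against 2.34% of all genes, and on P21 none against 8.52%, with 2 and 3 of the 5 at an unadjusted p under 0.05 and no call by DESeq2 or limma-voom. On P21, 2 were called without the 4 libraries that lie apart, Klb (-0.68, adjusted p = 0.0337) and Fgfr4 (-0.41, adjusted p = 0.0397), and both were also called in a fit of these 2 groups alone (-0.61 and -0.34, adjusted p = 0.0456 and 0.0334). On P7, where edgeR called 0.0% of genes (681 at an unadjusted p under 0.05, 8 by DESeq2 and 1 by limma-voom), Gdf15 ranked 124 by p and was the 1 of the 5 with an unadjusted p under 0.05. Interval bounds for Gdf15 ran from -2.33 to -0.38 on P7 and from -1.99 to -0.16 on WD.

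Gdf15 was higher on WD than on chow in sham mice, by 3.22 ± 0.68 on the log2 scale (adjusted p = 0.000245), and no WD library reached down to the chow range. It was lower than on WD on P21 in sham (-2.41 ± 0.52, adjusted p = 0.0003) and SG mice (-1.92 ± 0.57, adjusted p = 0.00879, and 0.0849 in limma-voom) and on P36 in sham mice (-1.82 ± 0.56, adjusted p = 0.0173, and 0.0556 without sham P36 library 5). Against WD its log2 fold change on P7 was 0.6 ± 0.46 in sham mice (95% interval -0.32 to 1.52, adjusted p = 0.316) and 0.31 ± 0.47 in SG mice (-0.63 to 1.26, adjusted p = 0.637). The sham value turned to -0.4 without sham P7 library 7 (adjusted p = 0.487). Macrophages also make Gdf15, and their markers moved with the WD comparison. Their sum was 157 to 452 CPM in sham WD, 65.5 to 89.7 CPM in sham chow and 104 to 203 CPM in sham P21 libraries. Of 10 markers 9 were higher on WD than on chow and 8 of 10 lower on P21 than on WD. Of all genes 31.7% and 32.1% were called in these comparisons. The median macrophage sum was 381 CPM in both sham WD and SG WD, and 151 CPM in sham P7. The part of macrophages in the Gdf15 levels was not tested. Between sham P7 and sham P36 the sums overlapped, at 66.9 to 196 and 117 to 204 CPM.

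Both hormone transcripts were also higher on P7 than on chow in sham mice. Fgf21 rose by 5.75 ± 0.86 (adjusted p = 4.42e-06) and Gdf15 by 3.82 ± 0.7 (adjusted p = 0.000116), the 2 called genes of the 5, against 12.5% of all genes. Without sham P7 library 7 these were 5.13 and 2.82, and Fgf21 was 6.57 without sham chow library 6, all still called. On P21 the log2 fold change of Fgf21 against chow was 2.01 ± 0.75 (95% interval 0.49 to 3.53, adjusted p = 0.167), with group ranges that did not overlap, and on P36 it was 1.75 ± 0.78 (0.18 to 3.32, adjusted p = 0.303). Of the 5 genes none was called by edgeR, DESeq2 or limma-voom in either, against 1.42% of all genes on P21 and 0.982% on P36, and 2 and 3 had an unadjusted p under 0.05. A fit of the compared groups alone called Fgfr1 on P7 (-0.66, adjusted p = 0.0365), Fgf21 on P21 (2.02, adjusted p = 0.0214) and Gdf15 on P36 (1.4, adjusted p = 0.0378).

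**Figure D2:**
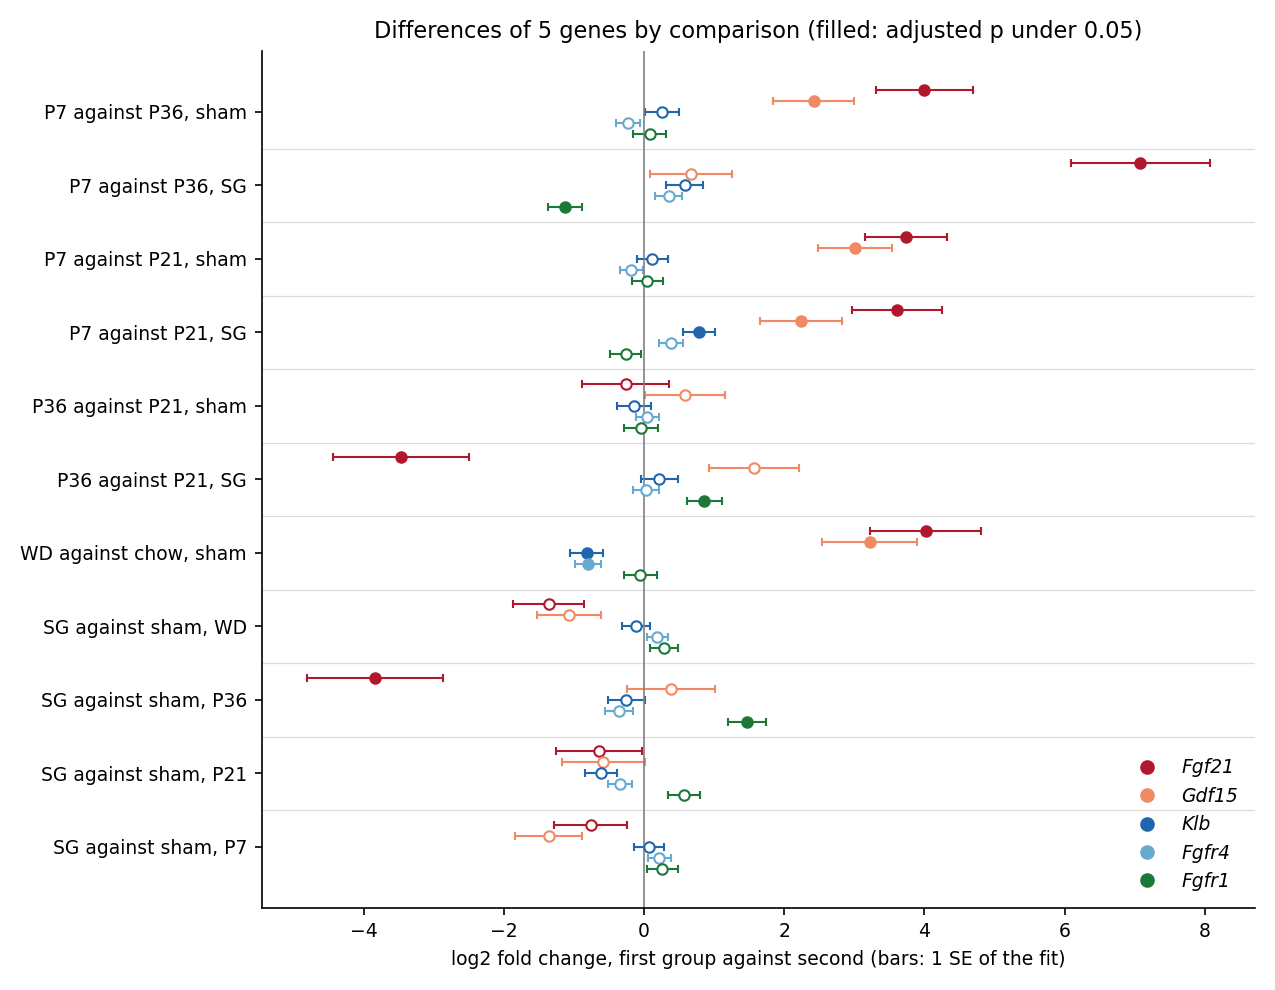
Log2 fold changes of the 5 genes in 11 comparisons, first group against second, with bars of 1 standard error of the fit and filled points for an adjusted p under 0.05. Fgf21 is filled and to the right in all 4 comparisons of P7 with P36 or P21, Gdf15 in 3 of them, and Fgfr1 is filled and to the right for SG against sham on P36.

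Klb encodes beta-Klotho, the co-receptor that FGF21 and FGF15 both need. It was low on WD, at 8.93 to 13.7 CPM in sham (median 11.5) and 5.24 to 15.6 CPM in SG libraries (median 10.6). On P7 it was 14.9 to 30.0 CPM in sham (median 21.5) and 16.3 to 30.9 CPM in SG libraries (median 22.9), so that no P7 library overlapped with WD under the same surgery. It rose on P7 against WD by 0.92 ± 0.21 in sham (adjusted p = 0.000516) and by 1.11 ± 0.21 in SG mice (adjusted p = 5.93e-05). It also rose in sham mice on P21 (0.81 ± 0.21, adjusted p = 0.00255) and on P36 (0.67 ± 0.23, adjusted p = 0.0335) against WD. The P36 call ended without sham WD library 4 or without any 1 of sham P36 libraries 1, 2, 5 and 6, with adjusted p-values up to 0.0703. Hepatocyte markers moved with these comparisons. Their sum had a median of 55000 CPM in sham WD and 54000 CPM in SG WD, and of 83300 to 104000 CPM in the other groups tested. Of the 8 markers 4 fell on WD against chow (median log2 fold change -0.64). On P7 against WD 5 rose in sham (median 0.51) and 5 in SG mice (median 0.6). Of all genes 31.7%, 35.7% and 33.9% were called in these comparisons. The part of hepatocyte markers in the Klb and Fgfr4 differences was not tested.

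Klb was also lower on WD than on chow, by a log2 fold change of -0.82 ± 0.24 (adjusted p = 0.00716), which was -0.48 and not called without sham chow library 1 (adjusted p = 0.165). The 4 chow libraries spread over 35.1, 23.4, 14.3 and 11.6 CPM. Within the protein diets Klb was called in SG mice, where P7 libraries all lay above the 9.83 to 15.9 CPM of the 6 P21 libraries (0.79 ± 0.23, adjusted p = 0.0199). In sham mice the P21 libraries ran from 13.4 over 18.5 to 33.7 CPM, and P7 against P21 gave 0.12 ± 0.22 (95% interval -0.32 to 0.55). The difference between the surgery groups in this contrast was 0.68 ± 0.31 (adjusted p = 0.262). SG against sham on P21 gave -0.61 ± 0.23 (adjusted p = 0.0816, and 0.0377 without sham P21 library 6). In the order of its group means no gap between neighbours exceeded the SD of either.

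Fgfr4 encodes the main FGF receptor of hepatocytes. It was lowest on WD, at 18.0 to 41.2 CPM in sham (median 26.1) and 19.8 to 49.7 CPM in SG libraries (median 25.6), where WD libraries 5 and 7, of those that lie apart, held the highest levels, 49.7 and 46.5 CPM. Sham chow libraries held 50.2, 48.5, 44.4 and 46.8 CPM, all above sham WD. The log2 fold change of WD against chow was -0.8 ± 0.18 (adjusted p = 0.000393). In sham mice Fgfr4 rose against WD on P36 (0.81 ± 0.17, adjusted p = 0.000592), P21 (0.76 ± 0.15, adjusted p = 0.000144) and P7 (0.58 ± 0.15, adjusted p = 0.0025). Hepatocyte markers were also lower on WD, with 4 of 8 higher on P36 than on WD and 4 of 8 on P21 (median log2 fold changes 0.49 and 0.39). Of all genes 18.2% and 32.1% were called there.

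In SG mice Fgfr4 rose on P7 against WD by 0.61 ± 0.15 (adjusted p = 0.00159), and its log2 fold change was 0.22 ± 0.16 on P21 and 0.26 ± 0.18 on P36 (adjusted p = 0.294 and 0.336). Without the 4 libraries that lie apart these 2 values were 0.52 (adjusted p = 0.00537) and 0.58 (adjusted p = 0.014). On P36, SG libraries held 40.0, 39.2, 34.0 and 34.8 CPM and sham libraries 42.8, 48.0, 44.4, 54.2 and 49.2 CPM, ranges that did not overlap, yet the log2 fold change of -0.35 ± 0.2 was not called (adjusted p = 0.421). Among the protein diets edgeR's fit of all groups called no difference in Fgfr4, with 95% intervals of P7 against P36 from -0.57 to 0.12 in sham and from -0.03 to 0.72 in SG mice. P7 against P21 in SG mice gave 0.38 ± 0.17 (95% interval 0.05 to 0.72, adjusted p = 0.133), which was called in a fit of these 2 groups alone (0.4, adjusted p = 0.0476). The slope on protein was -0.02 ± 0.04 for each 10 percentage points.

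Fgfr1 encodes the receptor that carries the FGF21 signal in fat. On P36 the 4 SG libraries held 14.1, 12.2, 15.9 and 19.4 CPM and the 5 sham libraries 5.05, 3.94, 7.52, 6.19 and 5.42 CPM, ranges far apart. Its log2 fold change for SG against sham was 1.47 ± 0.27 (adjusted p = 0.00119), the rank 18 by p among 16087 genes, and 1.5 without SG P36 library 1 (adjusted p = 0.00266). The authors' deposited table gives 1.465 with an adjusted p-value of 0.000762 for the same comparison. On the other diets the SG and sham ranges overlapped, with 0.29 ± 0.2 on WD, 0.57 ± 0.23 on P21 (adjusted p = 0.103) and 0.26 ± 0.22 on P7. The P21 value was called without sham P21 library 2 (0.73, adjusted p = 0.0417) or SG P21 library 7 (0.7, adjusted p = 0.0462). Over P36, P21 and P7 together it was 0.76 ± 0.14 (adjusted p = 0.000673, rank 22), and 0.7 without the 4 libraries that lie apart (adjusted p = 0.00145).

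Within SG mice Fgfr1 was higher on P36 than on the other protein diets. P7 against P36 gave -1.13 ± 0.24 (adjusted p = 0.000671), with P7 libraries from 4.99 over 6.56 to 11.1 CPM, all below the P36 libraries, and P36 against P21 gave 0.86 ± 0.25 (adjusted p = 0.0256). The latter call ended without SG P36 library 3 (0.85, adjusted p = 0.0693) or 4 (0.75, adjusted p = 0.0906) or without SG P21 library 2 (0.77, adjusted p = 0.0695) or 7 (0.74, adjusted p = 0.0678), and in a fit of these 2 groups alone (0.89, adjusted p = 0.0688). In sham mice P7 against P36 gave 0.08 ± 0.24 (95% interval -0.40 to 0.56). The difference between the surgery groups was -1.21 ± 0.34 (adjusted p = 0.123).

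In sham mice Fgfr1 was lower on each protein diet than on WD, where libraries ran from 6.12 over 8.72 to 12.2 CPM. The log2 fold change was -0.6 ± 0.21 on P7 (adjusted p = 0.0209), -0.65 ± 0.21 on P21 (adjusted p = 0.0158) and -0.68 ± 0.23 on P36 (adjusted p = 0.0348), and each of these calls ended without sham WD library 6 (adjusted p = 0.0545, 0.0588 and 0.104). The P7 call also ended without sham P7 library 8 and the P21 call without sham P21 library 3 or 4. The P36 call also ended without any 1 of sham WD libraries 2, 5 and 7 and sham P36 libraries 1, 2, 5 and 6, with adjusted p-values up to 0.139. In SG mice it was -0.63 ± 0.21 on P7 (adjusted p = 0.015), -0.37 ± 0.22 on P21 (adjusted p = 0.199) and 0.49 ± 0.24 on P36 (adjusted p = 0.148), the last with the opposite sign to sham mice. Sham chow libraries held 8.79, 11.4, 8.75 and 8.25 CPM, and WD against chow gave -0.05 ± 0.24.

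Stellate, endothelial and other cells express Fgfr1 as well as hepatocytes. Between SG and sham P36, summed stellate and fibroblast markers were 388 to 562 and 391 to 503 CPM. Endothelial markers were 173 to 192 and 123 to 171 CPM, ranges that did not overlap. Macrophage markers were 153 to 325 and 117 to 204 CPM. Of these lists edgeR called 0 of 12, 0 of 7 and 0 of 10 genes, with 0, 2 and 1 at an unadjusted p under 0.05 and median log2 fold changes of 0.14, 0.31 and 0.63. Of 7 adipocyte markers tested 1 rose, with a median of 2.23, which was -0.45 without the 4 libraries that lie apart, and their sum overlapped between the groups, at 1110 to 3770 and 1850 to 5100 CPM. Their part in the Fgfr1 difference was not tested. Gm16159, an antisense gene that overlaps Fgfr1, had 0 counts in all 57 libraries.

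**Figure D3:**
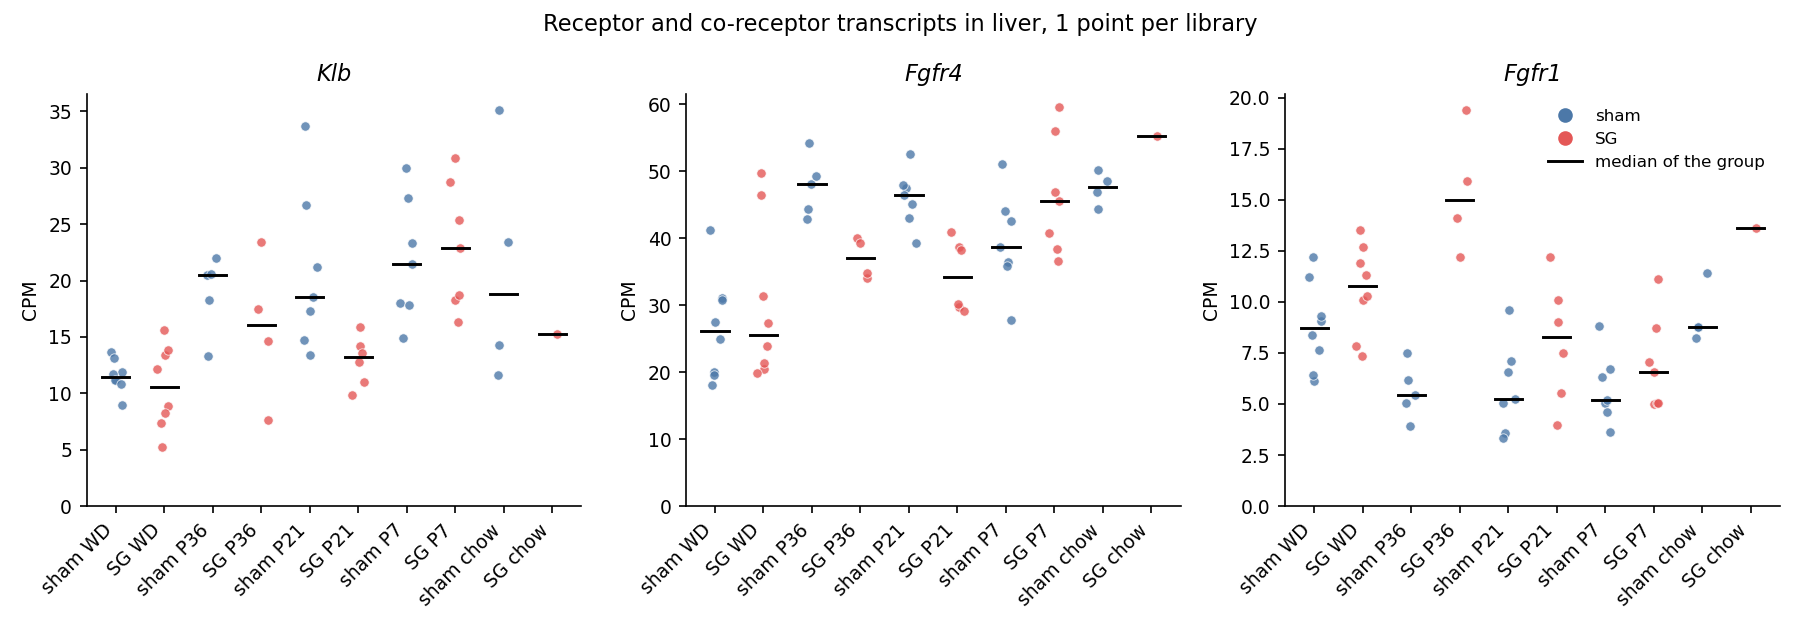
CPM of Klb, Fgfr4 and Fgfr1 on linear axes that start at 0, with 1 point per library, sham in blue and SG in red, and the median of each group as a black line. Klb and Fgfr4 are low on WD, where sham medians are 11.5 and 26.1 CPM, and the 4 SG P36 libraries of Fgfr1 lie at 12.2 CPM or more, above all sham P36 libraries.

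Levels of different genes were compared per kb of exon. The length was that of all annotated exons of a gene merged, 951 bases for Fgf21, 3542 for Fgfr4 and 9875 for Fgfr1. Merged exons can be longer than the transcripts present, which lowers a level per kb. In sham P7 livers the mean levels per kb were 73.5 CPM for Fgf21, 11.1 for Fgfr4, 4.8 for Gdf15, 4.8 for Klb and 0.584 for Fgfr1. In sham P36 livers the same levels were 4.73, 13.5, 0.919, 4.17 and 0.569 CPM per kb, so that Fgf21 was above Fgfr4 on P7 and below it on P36. Fgfr4 was above Fgfr1 in every library, with at least 5.07 against at most 1.97 CPM per kb.

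The other genes of these hormone systems differed widely in level. Of 7 other receptor and co-receptor genes 3 were tested, with group means of 23.0 to 36.7 CPM for the FGF receptor gene Fgfr2, 33.3 to 47.5 CPM for the FGF receptor gene Fgfr3 and 18.1 to 28.4 CPM for Fgfrl1, an FGF receptor without a kinase domain. Gfral, the GDF15 receptor, had 0 counts in all 57 libraries, and Ret, its partner, reached 0.978 CPM at most. Kl, the Klotho gene of the FGF23 receptor, had 19 counts in all and was at 0 in 42 libraries, and Fgf15, the ileal hormone, had 3 counts, all in 1 library. Fgf23 reached 1.67 CPM in SG P36 library 1 and was at 0 in 47 libraries. Of 14 FGF ligand genes besides Fgf21, 5 were tested. Fgf1, a tissue growth factor, had group means of 84.1 to 171 CPM, and on P7 it had log2 fold changes of -0.65 against P36 in SG mice and -0.7 against P21 in sham mice, both called. Against P36 in sham mice Fgf1 had -0.5, not called (adjusted p = 0.113). Fgfr2 and Fgfrl1 rose on P7 against P36 in SG mice, by 0.67 and 0.37, and Fgfr3 had 0.09, not called. In sham mice Fgfr2, Fgfrl1 and Fgfr3 had 0.29, -0.15 and 0.4, none called (adjusted p = 0.274, 0.43 and 0.131). Dpp4, a protease that can cut FGF21, fell by 0.34 in sham and by 0.49 in SG mice on P7 against P36. Fap, also listed for FGF21 turnover, had 0.26 in sham mice, not called (adjusted p = 0.791), at means of 0.417 and 0.36 CPM. Of all genes 15.7% were called there in sham and 18.8% in SG mice.

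Genes downstream of FGF receptors were called on P7 against P36 in sham mice at about the share of all genes, 15.7%. Of 18 relay genes between receptor and ERK, 1 rose (Braf, by 0.3) and 2 fell (among them Hras, by 0.37) on P7 against P36 in sham mice (median log2 fold change -0.09), and 1 rose in SG mice (median -0.03, with 18.8% of all genes called), where the median of all genes was 0.03 and -0.01. Of 15 ERK feedback and immediate target genes, 2 rose in sham mice (median 0.32), Spry1, a brake on receptor signals, by 0.81 and Spred2, of the same kind, by 0.37. In SG mice 1 fell (median -0.25). WD against chow raised 5 of these 15, among them Etv4, an ERK-induced transcription factor, by 2.31, where 31.7% of all genes were called.

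Genes of bile acid synthesis, its regulators and bile acid transport, a process that FGF15 is known to restrain at the step of Cyp7a1, were called in the WD comparisons, in which many of all genes were called too, 31.7% on WD against chow and 32.1% on P21 against WD in sham mice. Of 9 such genes 6 fell on WD against chow in sham mice (median -0.78, all genes -0.01) and 5 rose on P21 against WD (median 0.77). Cyp7a1, the rate-limiting enzyme of bile acid synthesis, rose by 1.12 on P21 against WD. Slc10a1, the uptake carrier of bile acids, had log2 fold changes of -1.06 on WD against chow and 0.84 on P21 against WD. On P7 against P36 edgeR called 0 of 9 in sham mice (2 at an unadjusted p under 0.05), against 15.7% of all genes, and 3 rose in SG mice, against 18.8%, among them Nr0b2, the repressor SHP, by 2.18. Protein-diet values of Cyp7a1 were -0.55 in sham and -0.75 in SG mice for P7 against P36, neither called.

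Fgf21 is a target of ATF4, and many genes of the ATF4 list rose on P7 as well. Of 30 targets, none of them among the 5 genes, 20 rose on P7 against P36 in sham mice (median log2 fold change 1.32, all genes 0.03) and 21 against P21 (median 1.16). In SG mice 14 rose against P36 (median 0.83) and 19 against P21 (median 1.19), and none of the list fell in any of the 4 comparisons. Of all genes 15.7% and 26.3% were called in the sham and 18.8% and 9.7% in the SG comparisons. Without the 4 libraries that lie apart the SG counts were 19 and 20. Psat1, of serine synthesis, rose by 5.1 in sham and 4.04 in SG mice against P36, and Trib3, a stress pseudokinase, by 5.0 and 4.88. Nupr1, a stress-induced chromatin protein, rose by 4.08 and 3.56, and Slc3a2, the shared chain of amino acid carriers, by 1.66 and 1.53. Fgf21 itself had 4.0 and 7.08, the latter set by 3 to 14 counts in each SG P36 library. These 4 targets were picked by their low p in the sham comparison, so Fgf21 was not ranked against them. Of 9 genes for the eIF2 alpha kinases, their partners and phosphatase, which act upstream of ATF4, 2 fell in sham mice against P36, Eif2ak2, the kinase PKR, by 0.42 and Eif2ak3, the kinase PERK, by 0.83, a share near that of all genes. In SG mice they had -0.07 and -0.47, neither called (adjusted p = 0.81 and 0.0647).

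PPARA targets gave different counts of calls in the surgery groups. Of 28 targets, 4 rose on P7 against P36 in sham mice (median 0.25) and 20 in SG mice (median 0.84), where 15.7% and 18.8% of all genes were called. The count in sham mice was thus near the share of all genes. The 4 were Cpt1a and Cpt1b, carriers of fatty acids into mitochondria, with 0.56 and 1.72 in sham and 0.8 and 1.19 in SG mice, Acot2, a mitochondrial thioesterase, with 2.15 and 3.26, and Cyp4a31, of the fatty acid hydroxylase family, with 2.33 and 3.04. On P36, SG against sham lowered 12 of the 28 (median -0.85, all genes 0.01), where 2.22% of all genes were called, and without the 4 libraries that lie apart also 12 (median -0.93). None of the former 4 was among the 12. Fgf21 had its lowest group level in SG P36, and the part of PPARA in that level was not tested. Of the 12, chosen after their values were seen, are Acot1, a thioesterase of fatty acid oxidation, with -2.35 and Cyp4a10, a fatty acid hydroxylase, with -2.09. ATF4 targets in that comparison had 1 gene higher of 30, Asns, asparagine synthetase, with 3.5, and a median of 0.15, which was -0.17 without the 4 libraries that lie apart. These comparisons share the SG P36 libraries, and of the 28 PPARA targets edgeR called none for the effect of surgery on P7 minus that on P36, with 16 at an unadjusted p under 0.05.

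**Figure D4:**
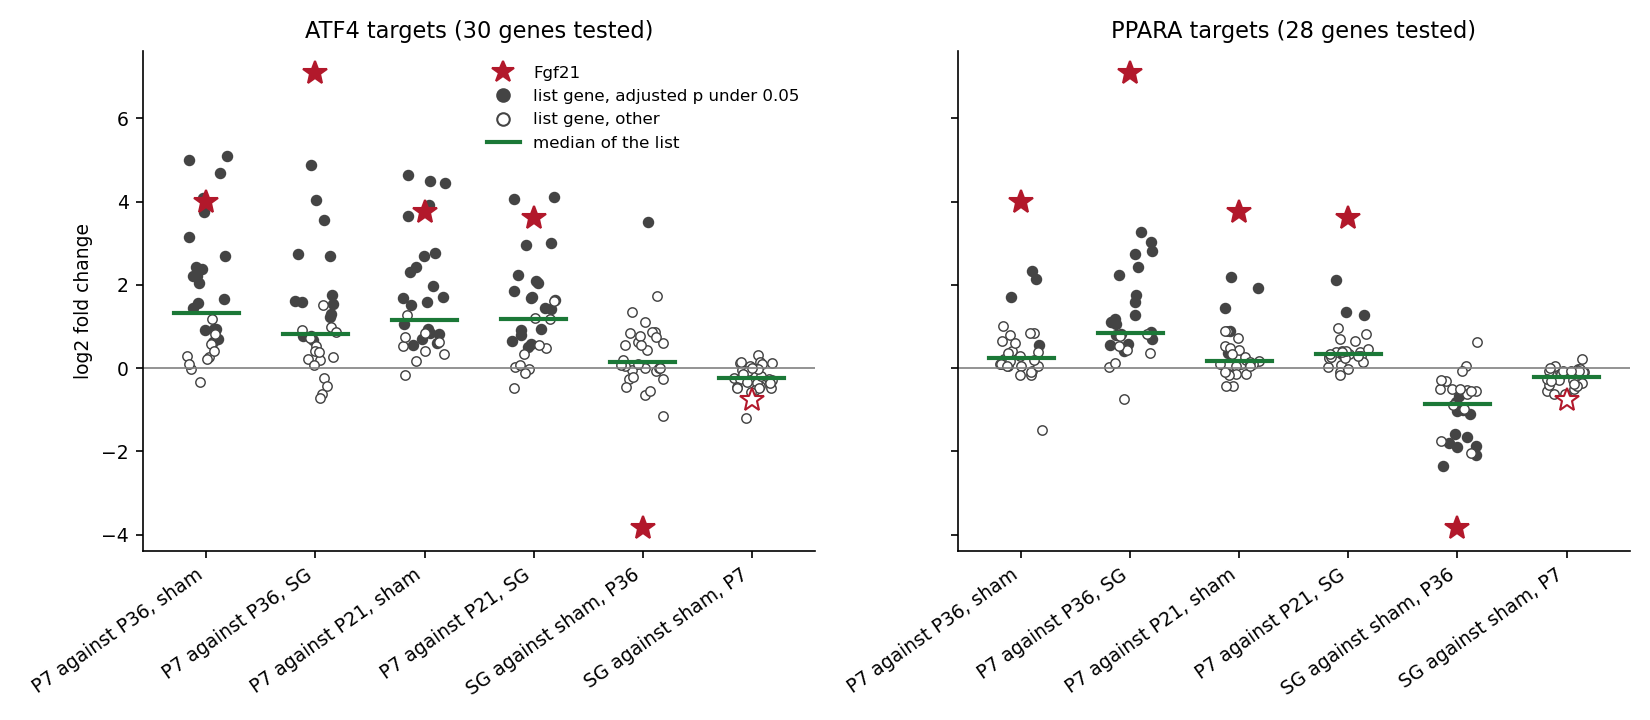
Log2 fold changes of 30 ATF4 targets and 28 PPARA targets in 6 comparisons, with filled points for an adjusted p under 0.05, green lines at the median of the list and Fgf21 as a red star. ATF4 targets and Fgf21 lie mostly above 0 in the 4 comparisons of P7. For SG against sham on P36 Fgf21 lies at -3.84, the PPARA median at -0.85 and the ATF4 median at 0.15. A link of Fgf21 with either list was not tested.

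Among 18 transcription factors and cofactors known to act on the Fgf21 gene, 5 rose and 5 fell on P7 against P36 in sham mice, and 5 rose and 3 fell in SG mice, where 15.7% and 18.8% of all genes were called. Atf5 and Ddit3, stress factors of the ATF4 pathway, rose by 1.75 and 2.69 in sham and by 3.18 and 2.16 in SG mice. The transcript of Atf4 had log2 fold changes of 0.3 and 0.2, neither called, and ATF4 is known to be set mainly by translation. Ppara fell by 1.03 in sham and 1.09 in SG mice, and Ppargc1a, a coactivator of fasting, by 1.36 and 1.51. On P36, 3 of the 18 were lower in SG than in sham mice, against 2.22% of all genes called, Nr1d1, a clock repressor, with -2.0, Atf5 with -1.72 and Nfe2l2, the gene of the antioxidant factor NRF2, with -0.57. Of 17 ChREBP targets, which respond to sugar, 12 rose on WD against chow (median 1.14), and none rose on P7 against P36 in sham mice, where 5 fell. Of all genes 31.7% and 15.7% were called in these comparisons.

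Gdf15 is a known target of ATF4, DDIT3 and p53. Of 17 p53 target genes 3 rose on P7 against P36 in sham mice (median -0.11) and 10 on WD against chow (median 0.44), and Cdkn1a, a cell cycle inhibitor, rose by 2.24 and 2.88 in these. Of all genes 15.7% and 31.7% were called there, so that the count on P7 was near the share of all genes. Trp53inp1, a p53-induced stress protein, rose by 1.73 and Trp53 itself by 0.69 on P7 against P36. Hyou1 and Manf, of the endoplasmic reticulum stress response, had log2 fold changes of -1.77 and -1.83. Of 20 genes of that response 1 rose and 14 fell on P7 against P36 in sham mice (median -1.01). Among 23 other hormone genes of the liver tested, 7 rose and 3 fell in that comparison. Inhba, an activin subunit, rose by 1.59, while Igf1, insulin-like growth factor 1, fell by 0.75, Hamp2, of the hepcidin family, by 3.47 and Gpld1, a secreted phospholipase, by 0.61. In SG mice the same 4 genes rose or fell in the same direction, with 1.21, -0.8, -2.25 and -0.92. Against P21, Inhba was not called (0.29 in sham and -0.17 in SG mice, adjusted p = 0.397 and 0.719), nor was Hamp2 (-0.72 and -1.56, adjusted p = 0.382 and 0.0875). Igf1 fell against P21 in both surgery groups, by 0.5 and 0.57, and Gpld1 fell by 0.59 in sham mice, with -0.27 in SG mice (adjusted p = 0.19).

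Within groups, Fgf21 and Gdf15 were correlated over all libraries. Over 56 libraries, with the group mean taken from each log2 CPM, Pearson's r was 0.51 and Spearman's rho 0.43 (permutation tests within groups, adjusted over 10 pairs of genes, p = 0.0042 and 0.0225). Without SG P7 library 7 and sham WD library 1, the farthest from the median in Fgf21, r was 0.44. It was positive in 6 of the 6 groups of at least 6 libraries, from 0.28 to 0.92, while rho ran from 0.0 in sham P21 and 0.14 in SG P21 to 0.86 in sham P7. The highest r, in SG P7, came with a rho of 0.29, since library 7 is lowest in both genes and far from the rest, while in sham P7 r was 0.86 and rho 0.86.

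Fgf21 and Fgfr1 ran opposite ways within groups, with r = -0.38 (adjusted p = 0.0246) and rho = -0.33 (adjusted p = 0.0594, permutation tests), and r was -0.25 without the same 2 libraries and -0.23 without the 4 that lie apart. In sham P21 it was -0.93, and it was positive in 2 of the 6 groups. Klb and Fgfr1 gave r = -0.34 (adjusted p = 0.0246) and rho = -0.33 (adjusted p = 0.0594), with r = -0.3 without SG P36 library 4 and SG WD library 5. The other 7 pairs had adjusted permutation p-values of 0.0932 or more. Summed cell markers and depth differ between libraries of a group, and their part in these relations was not tested.

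**Figure D5:**
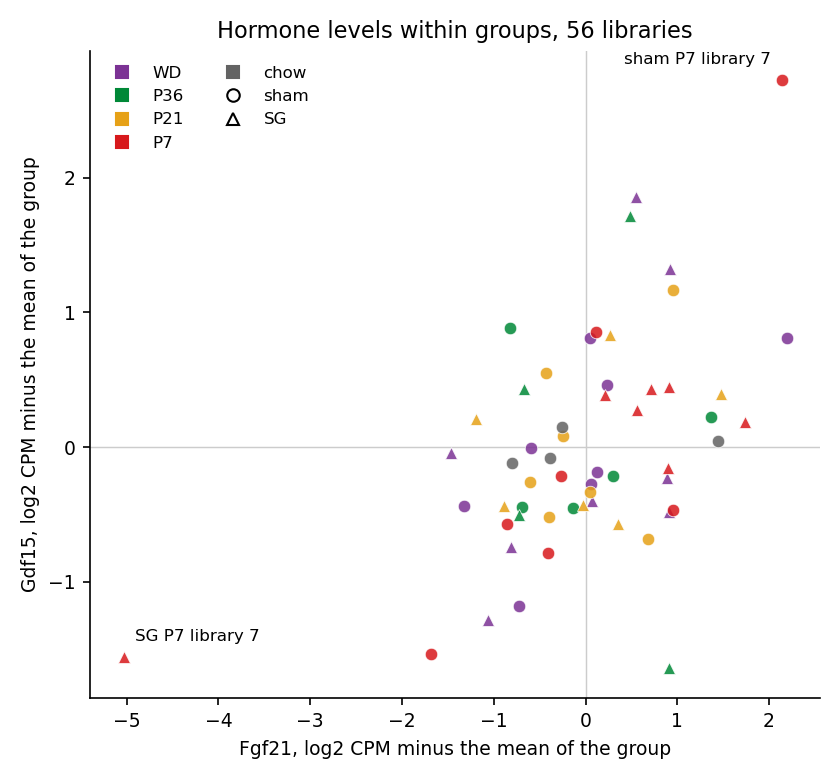
Fgf21 and Gdf15 in 56 libraries as log2 CPM minus the mean of the group, circles for sham and triangles for SG, coloured by diet. The points rise from lower left to upper right (r = 0.51), with SG P7 library 7 at the lower left and sham P7 library 7 at the upper right.

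The genes most like each of the 5 in log2 CPM over the 56 libraries, out of 11376 ranked, were named by Pearson's r as a description. For Fgf21 they were Plekha1 (r = 0.81, and 0.55 within groups), Gadd45a (0.8 and 0.65), Serinc2 (0.8 and 0.38), Atf5 (0.78 and 0.5) and Trib3 (0.78 and 0.64). For Gdf15 they were Eif4ebp1, a translation repressor (0.79 and 0.65), Pdgfa, Scarf2, Rhbdf1 and Tnfrsf12a. Klb was most like Adgrl2 (0.83 and 0.82), Atrn, Sh3pxd2a and Cdkn2aip. Fgfr4 was most like Cbs, an enzyme of cysteine synthesis (0.89 and 0.8), Lzts3, Slco2a1, Nelfe and Bmp1. Fgfr1 had the weakest matches, Galns (0.69 and 0.5), Cyb561, Orm2, Slc37a1 and Dnaja4. All 56 libraries share the same scaling, and depth and group enter every r.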

How the data were processed

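Libraries of poly(A) RNA, stranded TruSeq, were read as 150-base pairs, per the labels' protocols. The authors deposited expected counts per gene, which the sheet name credits to RSEM, for 57 of 62 labelled samples. The other 5 were not analysed here. GRCm39 is the only build named, and R 4.4.1, edgeR and limma are named with no role, per the submitters' processing notes. Aligner, annotation, strand setting and filters are not given in the sources used here. Besides, the authors' deposited table also holds log2 fold changes, p-values and an F score for SG against sham, printed only where named.

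Expected counts (3.339% not whole) were rounded and fitted in R 4.3.3 with edgeR 4.0.16: filterByExpr (16087 genes), TMM, 9 groups in 1 quasi-likelihood fit of 56 libraries with 47 residual degrees of freedom (biological coefficient of variation 28.2%). The design had assumed 61 libraries. Standard errors are the log2 fold change over the square root of F, intervals are 95%, log2 CPM used a prior count of 2, and p-values are two-sided, adjusted by Benjamini and Hochberg's method, threshold 0.05. Correlations used 100000 permutations within groups in scipy 1.17.1. CPM also used the TMM sizes.

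Libraries were taken as separate mice. Their numbers come from accession order, so p-values measure only the spread between libraries. All 156 pairs within groups differed by more than sampling noise (chi-square over its degrees of freedom at least 9.34). Alternatives were RLE scaling, no filter (30127 genes), DESeq2 1.42.0 without outlier replacement or independent filtering, limma-voom (limma 3.58.1), the compared groups alone, an additive model, log2 protein share, exact permutation tests, leaving out each library, and leaving out 4 libraries. List counts without those 4 were added after seeing the data. Steps were tested on simulated data.

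The 5 genes, the gene lists and the tests were chosen with earlier results of these data known. Named list genes are the 4 with the lowest adjusted p in P7 against P36 in sham mice, or any of a list of 9 or fewer, and others, named for their known role, were chosen after their values were seen. Some genes these rules select are not reported here. Genes ranked for likeness had an average log2 CPM of 1 or more and were not predicted genes. Of 320 list symbols 1 was matched by alias.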

Additional observations from a re-analysis of the deposited data

Results flagged for a closer look

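Single libraries stood apart in 5 of the 45 sets of one gene in one group that were screened. For values with a normal spread, chance gives about 1 in 20 such sets. The screen used CPM without a log, so that rate need not hold here. A library was picked out where its gap to the nearest other library of its group was large against the whole range of that group. For Fgf21 these were sham WD library 1 with 73.0 CPM (nearest 18.7 CPM), SG P21 library 2 with 7.41 CPM (nearest 3.35 CPM), sham P7 library 7 with 218.0 CPM (nearest 96.1 CPM) and sham chow library 6 with 3.07 CPM (nearest 0.892 CPM). For Gdf15 it was sham P7 library 7 with 35.7 CPM (nearest 9.68 CPM), the library that was also highest in Fgf21. Each was the highest of its group for that gene. SG P7 library 7, with 0.696 CPM of Fgf21 (nearest 29.3 CPM), was not picked out by this rule.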

How the results depend on the processing

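Of 130 values (5 genes in 26 comparisons) 44 were called, and scaling by RLE kept all 130 on their side of the threshold. DESeq2 moved 1, no filter 2, limma-voom 8, the compared groups alone 8 and leaving out the 4 libraries that lie apart 6, and over all alternatives the sign of an uncalled value changed in 77 cases. In the additive model of surgery and diet, P7 against P36 gave -0.53 for Fgfr1 (adjusted p = 0.0474), a reversed direction against 0.08 in sham mice, and 1.58 for Gdf15 (adjusted p = 0.00552) against the uncalled 0.67 in SG mice. That model assumes the same diet effect in both surgery groups. Leaving out 1 library at a time gave 2120 gene-by-comparison values, of which 43, on 11 of the 130 values, lost a call and 21, on 7 of them, gained one. Fgf21 on P7 ranged from 3.38 to 4.47 in sham and 6.8 to 7.55 in SG mice against P36, and from 3.12 to 3.91 and 3.34 to 4.04 against P21. Gdf15 ranged from 1.42 to 2.69 and 0.32 to 1.56, and from 2.02 to 3.27 and 2.11 to 2.54, in the same order. Limma-voom dropped 6 calls of Fgf21 and 1 of Gdf15, both of which vary widely within groups, and the cause was not tested. Two-sided exact permutation tests gave p = 0.00253 and 0.00606 for Fgf21 and 0.0101 and 0.158 for Gdf15 on P7 against P36 in sham and SG mice. Both Fgf21 values are the smallest that these group sizes allow, so they do not compare the strength of the difference between the surgery groups. No paired analysis was possible because replicate numbers were given in accession order and pair no libraries. SG P36 held 3 to 14 counts of Fgf21 in each of 4 libraries, so its level there is set by few reads. Cage effects were not tested, since cages are not given.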
